A study of Mus musculus with 10 samples.

Results

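The enzymes described here attach glutathione, glucuronic acid or sulfate to drugs, steroids, bilirubin, bile acids and reactive lipids. They are the genes whose array name begins with Gst, Ugt or Sult followed by a class letter or number, measured in the liver of mice with and without the nuclear orphan receptor TAK1/TR4 (gene Nr2c2). The name rule found 44 genes with 59 probes, out of 27666 named genes with 41174 probes on the array. They were 19 glutathione transferases with 24 probes, 14 UDP-glucuronosyltransferases with 21 probes and 11 sulfotransferases with 14 probes. The rule used the name only and no measured value.

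Liver RNA of C57BL/6 mice aged 1 year was measured on Agilent arrays in 1 colour (Cy3), with 5 wild-type arrays (WT1 to WT5) and 5 arrays of TAK1/TR4 knockout mice (KO1 to KO5). Both groups share strain, age and tissue in the labels, and the labels name no diet, agent or sex. How the deletion was made is not given there. Since nothing states that the arrays of a group come from different animals, the p-values speak only for the spread among these samples, part of which may be technical.

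In glutathione conjugation a transferase joins the thiol of glutathione to an electrophile, and the product is trimmed to a mercapturate for excretion. Cytosolic glutathione transferases are grouped by sequence into alpha, mu, pi, theta, omega and zeta classes, and the kappa enzyme sits in mitochondria and peroxisomes. UDP-glucuronosyltransferases lie in the endoplasmic reticulum and use UDP-glucuronate, and cytosolic sulfotransferases use the sulfate donor PAPS. In liver these enzymes act after cytochrome P450 oxidation and are known to respond to the receptors PXR, CAR and AHR and to the factor NRF2. TAK1/TR4 is known to bind direct repeats of the half-site AGGTCA.

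Values are log2 of the deposited signal minus the 75th percentile of that array, so a value of 0 is a signal at the percentile and a difference of 1 is a doubling. Differences are knockout minus wild type, with the standard error of the limma fit. A gene is said to have fallen or risen where limma's p-value, adjusted by Benjamini and Hochberg over all 15810 genes tested, was under 0.05. Of the 44 genes, 40 passed the filter on dim signal and were tested. Ugt8a, Sult2a2, Sult2b1 and Sult3a1 were too dim in both groups.

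Of the 40 tested genes, 6 (15%) changed, beside 5.93% of all genes, and all 6 fell, where 3.49% of all genes fell and 2.45% rose. The 6 genes were Gstt1, Gstt2 and Gstt3 of the theta class, Gstk1 of the kappa class, Gstz1 of the zeta class and the sulfotransferase Sult1c2. By family, 5 of 19 glutathione transferases, 0 of 13 tested UDP-glucuronosyltransferases and 1 of 8 tested sulfotransferases fell. The median difference was -0.34 for the glutathione transferases, -0.14 for the glucuronosyltransferases and 0.05 for the sulfotransferases, beside 0.01 for all genes. Differences were negative in 16, 9 and 4 genes of these families, and in 48.1% of all genes. The sulfotransferase median changed sign under quantile normalisation, to -0.03, and the other family medians stayed negative under every scaling tried. At an unadjusted p under 0.05 there were 13 of 40 genes (32.5%), beside 23.7% of all genes. In 7 of the 40 genes the groups did not overlap, against 9.59% of all genes.

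**Figure D1:**
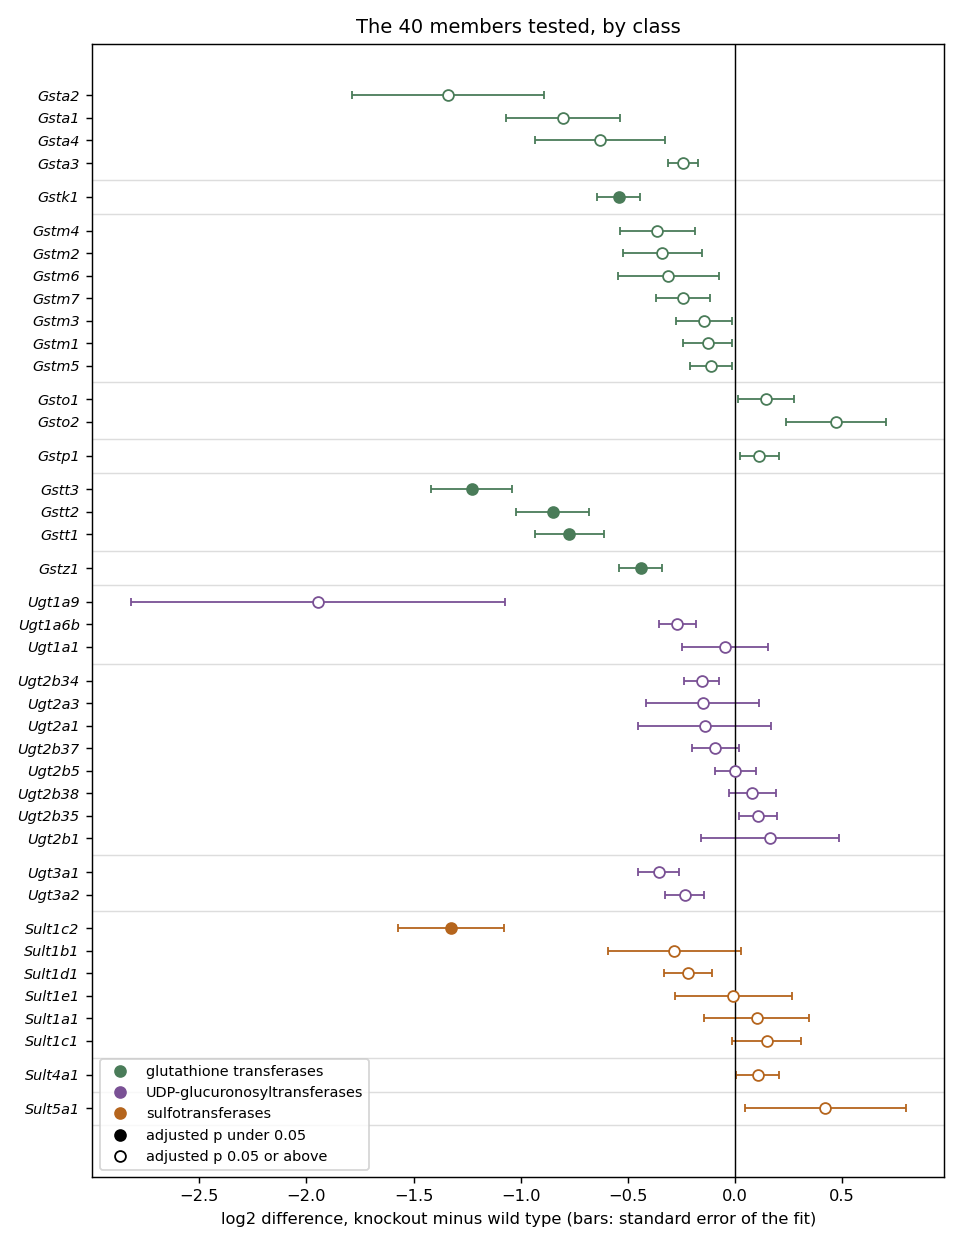
Log2 difference of knockout minus wild type for the 40 tested genes, with the standard error of the fit as bars, grouped by class and coloured by family. The 6 filled points, which passed an adjusted p of 0.05, all lie left of 0, among them the 3 theta genes between -1.23 and -0.77, and the alpha and mu points are also left of 0 but open.

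The 6 genes share no single place in the genome. On build mm7, as the files give it, the theta probes lie together on chromosome 10: Gstt3 at chr10:75429872-75429931, Gstt1 at chr10:75442599-75449763, a span longer than the probe itself, and Gstt2 at chr10:75488112-75488171. The Gstk1 probe is at chr6:42193349-42193410, the Gstz1 probe at chr12:85166766-85166825 and the Sult1c2 probe at chr17:51987327-51987386. Whether a probe lies in coding or untranslated sequence is not given in the array files.

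The sequences before their start sites are shown because the 6 genes moved in the same direction. RefSeq windows of build GRCm38.p6 were found for 38 of the 44 genes and for 5 of the 6, and Gstt2 had none. Each line gives the 250 bases upstream of the start, 5′ to 3′ on the gene's strand, with matches to any motif searched in capitals, and for Gstz1 and Gstt3 the window of 1 of the RefSeq starts.
Gstt1, chr10:75797732-75797981, minus strand: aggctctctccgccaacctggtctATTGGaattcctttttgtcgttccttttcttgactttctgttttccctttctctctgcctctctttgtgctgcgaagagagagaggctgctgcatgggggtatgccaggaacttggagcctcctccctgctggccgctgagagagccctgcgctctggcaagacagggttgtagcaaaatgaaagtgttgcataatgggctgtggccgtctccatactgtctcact
Gstt3, chr10:75781423-75781672, minus strand: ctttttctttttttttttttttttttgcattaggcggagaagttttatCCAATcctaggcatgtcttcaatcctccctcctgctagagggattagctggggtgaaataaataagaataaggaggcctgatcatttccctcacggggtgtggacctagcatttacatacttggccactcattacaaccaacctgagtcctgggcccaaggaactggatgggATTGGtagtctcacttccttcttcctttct
Gstk1, chr6:42245685-42245934, plus strand: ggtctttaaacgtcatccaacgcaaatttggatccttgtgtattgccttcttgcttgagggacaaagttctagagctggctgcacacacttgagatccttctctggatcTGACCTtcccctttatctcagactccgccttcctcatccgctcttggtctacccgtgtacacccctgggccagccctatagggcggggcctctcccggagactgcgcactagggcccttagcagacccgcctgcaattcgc
Gstz1, chr12:87146915-87147164, plus strand: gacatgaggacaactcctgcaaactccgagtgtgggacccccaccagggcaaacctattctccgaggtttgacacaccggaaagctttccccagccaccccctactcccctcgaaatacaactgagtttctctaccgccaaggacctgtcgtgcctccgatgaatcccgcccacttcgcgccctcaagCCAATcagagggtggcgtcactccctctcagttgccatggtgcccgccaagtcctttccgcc
Sult1c2, chr17:53845959-53846208, minus strand: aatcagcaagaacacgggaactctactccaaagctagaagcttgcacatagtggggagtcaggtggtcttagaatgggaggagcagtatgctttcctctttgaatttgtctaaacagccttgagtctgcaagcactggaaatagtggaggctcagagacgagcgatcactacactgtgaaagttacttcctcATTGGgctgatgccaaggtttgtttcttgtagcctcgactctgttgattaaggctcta
These patterns of letters were searched on both strands: AGGTCA, the nuclear receptor half-site; AGGTCANAGGTCA, its direct repeat; TGACNNNGC, the core of the antioxidant response element; GCGTG, the core of the xenobiotic response element; and CCAAT. Half-site matches can lie within the direct repeat. Among the 5 genes printed, Gstk1 holds the half-site, as TGACCT starting 141 bases before the start, and 14.0% of all 32851 windows hold it. The other 4 hold CCAAT or its complement ATTGG and none of the other patterns. CCAAT was found before 16 of the 38 genes with a window, of which only these 4 fell. It was in 24 of the 48 windows of the 38 genes and in 33.9% of all windows. The half-site was found before 8 of the 38 genes, of which only Gstk1 fell. The antioxidant core was found before Gsta3, Gstm5 and Gstm7 and in 10.2% of all windows, and the xenobiotic core before 8 of the 38 genes and in 28.2% of all windows. The direct repeat was in none of the windows of these genes and in 0.033% of all windows. These are matches of letters only.

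In the theta class 3 of 3 genes fell. Theta enzymes act on small electrophiles such as halogenated alkanes and epoxides. Gstt3 values on WT1 to WT5 were 5.69, 5.42, 5.27, 5.43 and 5.33, and on KO1 to KO5 they were 4.52, 4.42, 4.55, 3.90 and 3.60. The groups did not overlap, and KO4 and KO5 were lowest. Gstt3 fell by 1.23 ± 0.19 on the log2 scale, a 2.34-fold decrease (n = 5 per group, limma adjusted p = 0.0072, exact permutation p = 0.0079).

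Gstt2 in wild type was 3.57, 3.71, 3.93, 3.93 and 3.81, against 2.63, 2.80, 3.55, 3.05 and 2.66 in the knockout. The groups did not overlap, but KO3 came just under WT1. The gene fell by 0.85 ± 0.17 (1.80-fold, n = 5 per group, limma adjusted p = 0.0225, exact permutation p = 0.0079).

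Gstt1 stood at 3.13, 3.26, 3.21, 3.13 and 3.36 in wild type and at 2.64, 1.80, 2.71, 2.62 and 2.46 in the knockout. KO2 was the lowest array by far, and the groups did not overlap. Gstt1 fell by 0.77 ± 0.16 (1.71-fold, n = 5 per group, limma adjusted p = 0.0259, exact permutation p = 0.0079). Without KO2 its difference was -0.61 and it still passed, with an adjusted p of 0.0037.

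The permutation p of 0.0079 is the smallest that 5 against 5 arrays can give. Leaving out single arrays separates the 3 genes: Gstt3 passed without any one of the 10, with adjusted p from 0.0081 to 0.0250. Gstt2 no longer passed without WT2, WT3, WT4, WT5 or KO5 (adjusted p up to 0.0575), and Gstt1 without WT1, WT2, WT3, WT4, WT5 or KO5 (up to 0.0711). A further theta gene, Gstt4, carried on the array under another name, was too dim to test.

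**Figure D2:**
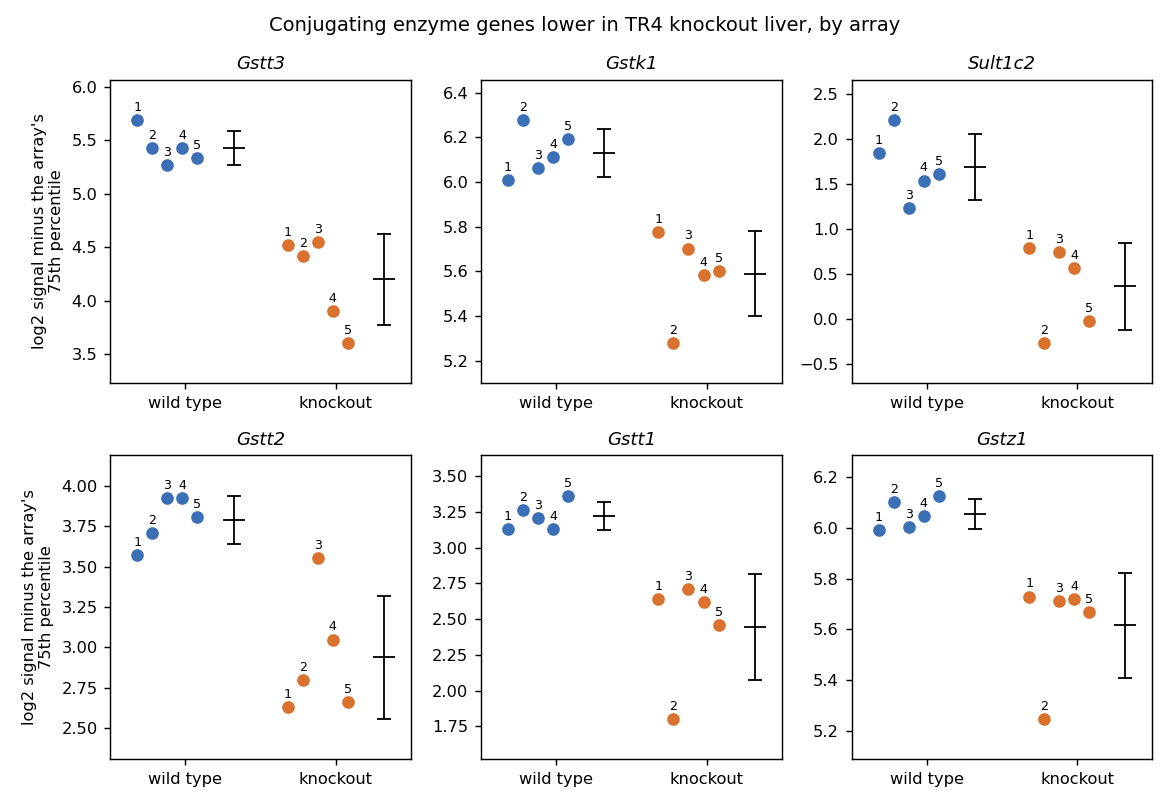
Values on each array for the 6 genes that fell, as log2 signal minus the array's 75th percentile, with the replicate number above each point and the mean with its standard deviation (n = 5) beside each group. Each panel has its own axis, and no panel shows overlap of the groups, which come nearest in Gstt2, with KO2 the lowest array for Gstk1, Sult1c2, Gstt1 and Gstz1.

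Gstk1 and Gstz1 are the only members of their classes on the array. Gstk1, the kappa enzyme, was 6.01, 6.28, 6.06, 6.11 and 6.19 in wild type and 5.78, 5.28, 5.70, 5.58 and 5.60 in the knockout. The groups did not overlap, and KO2 was lowest. It fell by 0.54 ± 0.10 (1.46-fold, n = 5 per group, limma adjusted p = 0.0172, exact permutation p = 0.0079), and of the 10 arrays only the removal of WT2 ended its call (adjusted p = 0.0523).

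Gstz1 encodes maleylacetoacetate isomerase, a step in the breakdown of tyrosine that uses glutathione as a cofactor. Wild-type values lay within a narrow band, at 5.99, 6.10, 6.00, 6.05 and 6.13, and knockout values were 5.73, 5.25, 5.71, 5.72 and 5.67. Apart from KO2 the knockout arrays were as close to each other as the wild-type arrays were. The fall was 0.44 ± 0.10, or 1.36-fold (n = 5 per group, limma adjusted p = 0.0325, exact permutation p = 0.0079). It was the least stable of the 6 calls, lost without any one wild-type array and without KO4 or KO5 (adjusted p up to 0.0876), while without KO2 the difference was -0.35 and passed.

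The alpha class holds the main inducible liver glutathione transferases, which conjugate aflatoxin epoxide and lipid peroxidation products. All 4 differences were negative, with a median of -0.72, and none of the 4 passed the test. At an unadjusted p under 0.05 there were 3. All 4 are named here because the class is small, a choice made after their values were seen. Gsta3 had the smallest p and the smallest difference, -0.24 ± 0.07 (n = 5 per group, limma adjusted p = 0.0738), from 8.28 ± 0.08 in wild type to 8.04 ± 0.09 in the knockout (SD). WT3 at 8.16 lay below KO3 at 8.18, so the groups overlapped.

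Gsta2 was 4.34, 5.01, 3.45, 4.44 and 4.02 in wild type and 2.80, 1.46, 4.09, 3.31 and 2.91 in the knockout, a difference of -1.34 ± 0.45 (n = 5 per group, limma adjusted p = 0.110). Gsta1 was 5.97, 6.37, 5.29, 5.91 and 5.66 in wild type and 4.99, 4.30, 5.77, 5.14 and 4.99 in the knockout, a difference of -0.80 ± 0.27 (n = 5 per group, limma adjusted p = 0.108). In both genes WT2 was the highest and KO2 the lowest array, and KO3 lay inside the wild-type range. Without KO3 Gsta1 passed the test, at -0.98 with an adjusted p of 0.0496. Gsta4, which acts on 4-hydroxynonenal, differed by -0.63 ± 0.30 (n = 5 per group, limma adjusted p = 0.240), and KO2 at 0.48 was its lowest array.

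The Gsta1 and Gsta2 probes share part of their sequence. Of 1694 pairs of probes for different genes compared, theirs shared the longest run, 20 bases, and the next longest was 12. Of the 60 bases of each probe, the last 28 of Gsta1 and the first 28 of Gsta2 line up with 27 identical and differ by T8A (Gsta1 to Gsta2, counted from 1 at the 5′ end of the lines printed), with the longest shared run in capitals.
Gsta1: catgtattCAGAAGGTATTTTAGATCTG
Gsta2: catgtataCAGAAGGTATTTTAGATCTG
Signal from these closely related genes may therefore be split or shared between both probes, which was not tested.

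The mu class, which conjugates epoxides and quinones, had 7 genes tested and 0 called, with 0 at an unadjusted p under 0.05. All 7 differences were negative, from -0.36 to -0.11 with a median of -0.24, and all 7 stayed negative under every scaling tried, but within slide 2 only 5 of 7 were. Gstm4 had the smallest p, with 2.83 ± 0.31 in wild type and 2.47 ± 0.29 in the knockout (SD, n = 5), a difference of -0.36 ± 0.18 (limma adjusted p = 0.245). Gstm7 differed by -0.24 ± 0.13 (n = 5 per group, limma adjusted p = 0.275) and its lowest array was again KO2, at -0.17 against 0.33 to 0.50 on the other knockout arrays. The second Gstm7 probe differed by -0.46 ± 0.20 (adjusted p = 0.202 over probes, limma).

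Over all arrays the omega and pi genes of the name rule had positive differences, none of which passed, and within slide 2 none was positive. Gsto2, of the omega class, which reduces dehydroascorbate and methylated arsenic, was -2.84 ± 0.30 in wild type and -2.36 ± 0.48 in the knockout (SD, n = 5 per group). Its difference of 0.47 ± 0.23 did not pass (limma adjusted p = 0.250) and turned to -0.25 within slide 2. Gsto1 differed by 0.15 ± 0.13 (n = 5 per group, limma adjusted p = 0.536), and by -0.0074 within slide 2. Gstp1, the pi enzyme, differed by 0.11 ± 0.09 (n = 5 per group, limma adjusted p = 0.483), and by -0.06 within slide 2. A second Gstp1 probe gave 0.49 ± 0.15 (adjusted p = 0.0845 over probes, limma), so the probes differ in size. Gstp3, carried under another name, differed by -0.44 ± 0.22 (n = 5 per group, limma adjusted p = 0.256).

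Among the UDP-glucuronosyltransferases limma called 0 of 13 genes, with 4 at an unadjusted p under 0.05, a cut that 23.7% of all genes passed, and with slide as a random block it called 1, Ugt3a1. The Ugt1a enzymes, which include the bilirubin enzyme Ugt1a1, are made from 1 gene complex whose alternative first exons are spliced to shared last exons. Along chromosome 1 (mm7) the probe of Ugt1a9 at chr1:87975078-87975137 comes first, then a Ugt1a6b probe at chr1:88010877-88010936, the Ugt1a1 probe at chr1:88115927-88115986 and a further Ugt1a6b probe at chr1:88122519-88122578. The last one lies beyond the others, and the files do not say whether it reads the shared exons.

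That last probe stood for Ugt1a6b and had the smallest p of the class, with 7.75 ± 0.12 in wild type and 7.48 ± 0.13 in the knockout (SD, n = 5). Its difference was -0.27 ± 0.09 (limma adjusted p = 0.103), while the other Ugt1a6b probe differed by -0.01 ± 0.14 (adjusted p = 0.980 over probes, limma). That other probe was far dimmer, from -0.06 on KO2 to 0.65 on WT4. The value given for Ugt1a6b may therefore include other Ugt1a transcripts, which was not tested. Ugt1a1 differed by -0.05 ± 0.20 (n = 5 per group, limma adjusted p = 0.915).

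Ugt1a9 was the most variable gene of the families. Its wild-type values were 2.38, 2.44, -2.22, -1.38 and -0.40, and its knockout values -1.74, -2.47, -1.49, -1.59 and -1.62. WT1 and WT2 stood far above every other array, WT3 lay among the knockout arrays, and WT4 was just above the highest of them. The difference of -1.95 ± 0.87 was the largest in size of the 40 and did not pass (n = 5 per group, limma adjusted p = 0.210, exact permutation p = 0.0873), and the standard deviation was 2.15 in wild type and 0.40 in the knockout.

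The Ugt2 genes form clusters on chromosome 5 and act on steroids, bile acids and many drugs. Of 8 tested, 4 had negative and 4 positive differences, from -0.15 to 0.16, and 0 passed or reached an unadjusted p under 0.05. Their median of -0.04 turned positive under quantile normalisation, at 0.02, and without scaling, at 0.06. Ugt2b34 had the smallest p, at -0.15 ± 0.08 (n = 5 per group, limma adjusted p = 0.281), and WT4 at 3.84 was its highest array.

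KO2 was the lowest array by far in 3 of the Ugt2 genes. Ugt2a1 was 2.33 on KO2 and 3.93 to 4.06 on the other knockout arrays, and its difference of -0.14 ± 0.31 (n = 5 per group, limma adjusted p = 0.821) became 0.19 without KO2. Ugt2a3 was 4.61 on KO2 and 5.91 to 6.04 on the others, and its difference of -0.15 ± 0.26 (n = 5 per group, limma adjusted p = 0.772) became 0.12. For Ugt2b1 the value was 2.88 on KO2 and 4.31 to 4.85 on the others, and the difference of 0.16 ± 0.32 (n = 5 per group, limma adjusted p = 0.799) became 0.49.

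The Ugt3 enzymes use other sugar donors than glucuronate. Both tested genes had negative differences under every setting tried. Ugt3a1 was 4.90, 5.18, 4.99, 5.15 and 5.23 in wild type and 4.51, 4.70, 4.72, 4.85 and 4.89 in the knockout. The groups did not overlap, with KO5 just below WT1, yet the difference of -0.36 ± 0.10 did not pass (n = 5 per group, limma adjusted p = 0.0592, exact permutation p = 0.0079). Ugt3a2 differed by -0.23 ± 0.09 (n = 5 per group, limma adjusted p = 0.161). Ugt8a, which makes galactosylceramide in myelinating cells, had 3 probes, and they were above background on at most 1 array.

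**Figure D3:**
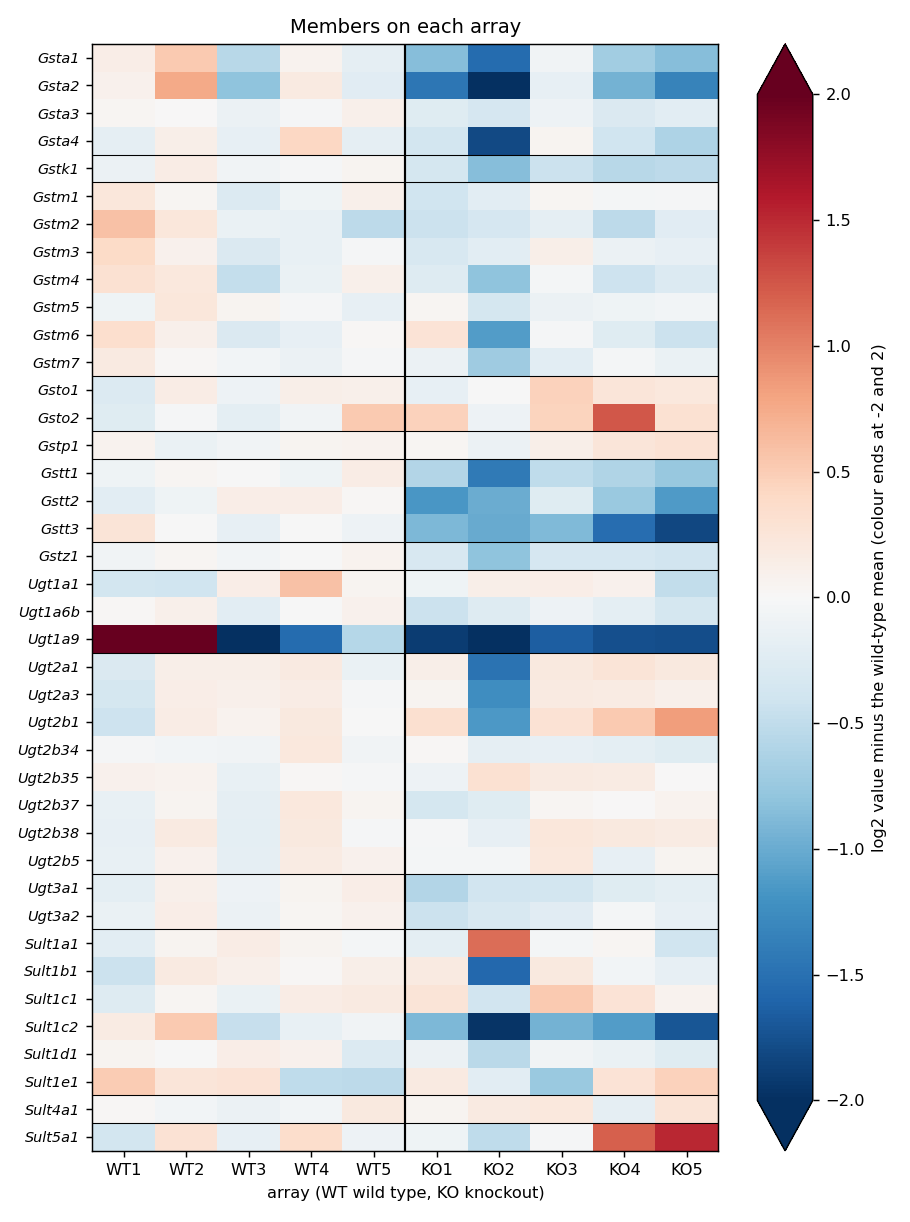
Each row is 1 of the 40 tested genes and each column 1 array, coloured by the log2 value minus the mean of the 5 wild-type arrays, with colours ending at -2 and 2 and lines between classes. On KO2 the rows of Ugt2a1, Ugt2a3, Ugt2b1 and Sult1b1 are darker blue than on any other array and Sult1a1 is red, the theta rows and Sult1c2 are blue on all 5 knockout arrays, and Ugt1a9 is split within wild type.

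Among sulfotransferases, 1 of 8 tested genes fell. Sult1c2 belongs to the Sult1 class, which sulfates phenols, catechols and iodothyronines. On WT1 to WT5 it was 1.84, 2.21, 1.23, 1.54 and 1.61, and on KO1 to KO5 it was 0.79, -0.27, 0.74, 0.57 and -0.03. The highest knockout array lay below the lowest wild-type array, and KO2 and KO5 were lowest. Sult1c2 fell by 1.33 ± 0.25, or 2.51-fold (n = 5 per group, limma adjusted p = 0.0172, exact permutation p = 0.0079). It passed without any one of the 10 arrays, with adjusted p from 0.0158 to 0.0472.

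The neighbouring Sult1c1 did not share this, at 0.15 ± 0.16 (n = 5 per group, limma adjusted p = 0.615). Sult1a1, the main phenol sulfotransferase, was 5.60 ± 0.14 in wild type and 5.70 ± 0.59 in the knockout (SD, n = 5), and KO2 at 6.71 was more than 1 log2 unit above the other knockout arrays. Its difference of 0.10 ± 0.25 (limma adjusted p = 0.837) became -0.15 without KO2. Sult1b1 went the other way on that array, at 1.51 against 2.91 to 3.28 on the other knockout arrays. It differed by -0.28 ± 0.31 (n = 5 per group, limma adjusted p = 0.625), and by 0.04 without KO2. Sult1d1 differed by -0.22 ± 0.11 (n = 5 per group, limma adjusted p = 0.264) and the estrogen sulfotransferase Sult1e1 by -0.01 ± 0.27 (n = 5 per group, limma adjusted p = 0.992), so 4 of the 6 Sult1 differences were negative. Within slide 2 only 3 of 6 were, since Sult1c1 (-0.049), Sult1d1 (0.033) and Sult1e1 (0.26) turned sign there.

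Sult4a1, a gene mainly expressed in brain, differed by 0.11 ± 0.10 (n = 5 per group, limma adjusted p = 0.557) and Sult5a1 by 0.42 ± 0.37 (n = 5 per group, limma adjusted p = 0.533). For Sult5a1, KO4 at 1.82 and KO5 at 2.14 lay above all other arrays, the highest of which was 0.97. Both differences were below 0 within slide 2. Sult2a2, Sult2b1 and Sult3a1, which act on steroids, cholesterol and amines, were above background on at most 2 arrays of a group. The hydroxysteroid sulfotransferase Sult2a8, carried under another name, differed by -0.08 ± 0.28 (n = 5 per group, limma adjusted p = 0.883).

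Slide and genotype overlapped only in part. Slide 1 held WT1 to WT4, slide 2 held WT5 with KO1, KO2 and KO3, and KO5 and KO4 were alone on slides 3 and 4, the latter scanned on a later day. Slide 2 alone held both groups, so with slide as a fixed block the differences equal those within slide 2. They were -0.83 for Gstt3, -0.81 for Gstt2, -0.98 for Gstt1, -0.60 for Gstk1, -0.57 for Gstz1 and -1.19 for Sult1c2. Their direction was fixed in advance, since in these 6 genes every knockout array lay below every wild-type array. In size they were smaller than over all arrays for Gstt3, Gstt2 and Sult1c2 and larger for Gstt1, Gstk1 and Gstz1. With the block limma called 0 of the 40 genes, with 8 (20%) at an unadjusted p under 0.05 beside 9.89% of all genes. Within slide 2 it called 0, with 2 (5%) at that cut beside 4.43% of all genes. Across all genes 35 were called with the block, 16 of them among the 938 called without it, and the differences then rest on 1 wild-type array against 3 knockout arrays. Of the 40 members, 12 turned sign there, which the 6 could not do, as their groups did not overlap.

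Genes that supply, assist or regulate conjugation were taken from a list of 61, chosen with earlier results of these data known. Of the 56 tested, 7 fell and 0 rose, beside 3.49% of all genes lower and 2.45% higher. The median difference was -0.19. The count was 8 without KO2, 10 without KO1, and 3 or fewer without WT1, WT2, WT3, WT4, WT5 or KO4. In glutathione supply and mercapturate formation 2 of 16 fell. Ggt6, of the gamma-glutamyltransferase family, went from 3.69 ± 0.03 to 2.97 ± 0.35 (SD, n = 5), a fall of 0.72 ± 0.15 (limma adjusted p = 0.0255). Ggct, which cleaves gamma-glutamyl peptides, fell by 0.59 ± 0.14 (n = 5 per group, limma adjusted p = 0.0372).

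Among glutathione transferases outside the name rule 1 of 5 fell, the membrane-bound Mgst3, by 0.60 ± 0.15 (n = 5 per group, limma adjusted p = 0.0455). Its groups overlapped, with KO3 at 1.19 above WT4 at 1.11. For UDP-glucuronate supply 1 of 4 fell, Ugdh, the enzyme that makes UDP-glucuronate, by 0.47 ± 0.11 (n = 5 per group, limma adjusted p = 0.0388). Its values were 5.61, 5.71, 5.39, 5.47 and 5.60 in wild type and 4.77, 5.04, 5.17, 5.09 and 5.36 in the knockout, with KO5 just under WT3.

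In sulfate donor supply and sulfate removal 2 of 10 fell. Bpnt2, the Golgi phosphatase that clears the by-product of sulfation, had the smallest p of the list: 3.68, 3.70, 3.79, 3.55 and 3.76 in wild type against 3.21, 3.15, 2.89, 2.90 and 2.90 in the knockout. The groups were clear of each other, and the gene fell by 0.68 ± 0.09 (n = 5 per group, limma adjusted p = 0.0033), passing without any one array. Arsa, a lysosomal arylsulfatase, fell by 0.77 ± 0.17 (n = 5 per group, limma adjusted p = 0.0282). Papss2 and Papss1, of donor supply, did not pass, at -0.94 ± 0.29 and -0.53 ± 0.21 (n = 5 per group, limma adjusted p = 0.0879 and 0.173). Both were named after their values were seen, and 8 of the 10 differences were negative.

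None of 8 efflux pumps for conjugates was called by limma, with 2 at an unadjusted p under 0.05 (23.7% of all genes were), and Abcc3, a basolateral pump for glucuronides, had the smallest p, at -0.57 ± 0.17 (n = 5 per group, limma adjusted p = 0.0777). Of 13 regulators 1 fell, Ppara, the fatty acid receptor, by 0.60 ± 0.15 (n = 5 per group, limma adjusted p = 0.0482). The counts of 1 or 2 genes in a pathway group were not tested against the 3.49% of all genes that fell. Of the 7 pathway genes that fell, 6 lost their call when single arrays were left out, without 6 to 9 of the 10 arrays each, and Bpnt2 was the exception. Mgst3 and Ugdh also lost their calls under quantile normalisation, and Ugdh under normexp with quantile normalisation. Mgst3 and Ggct lost theirs with the mean of a gene's probes, and Ppara with every probe tested.

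**Figure D4:**
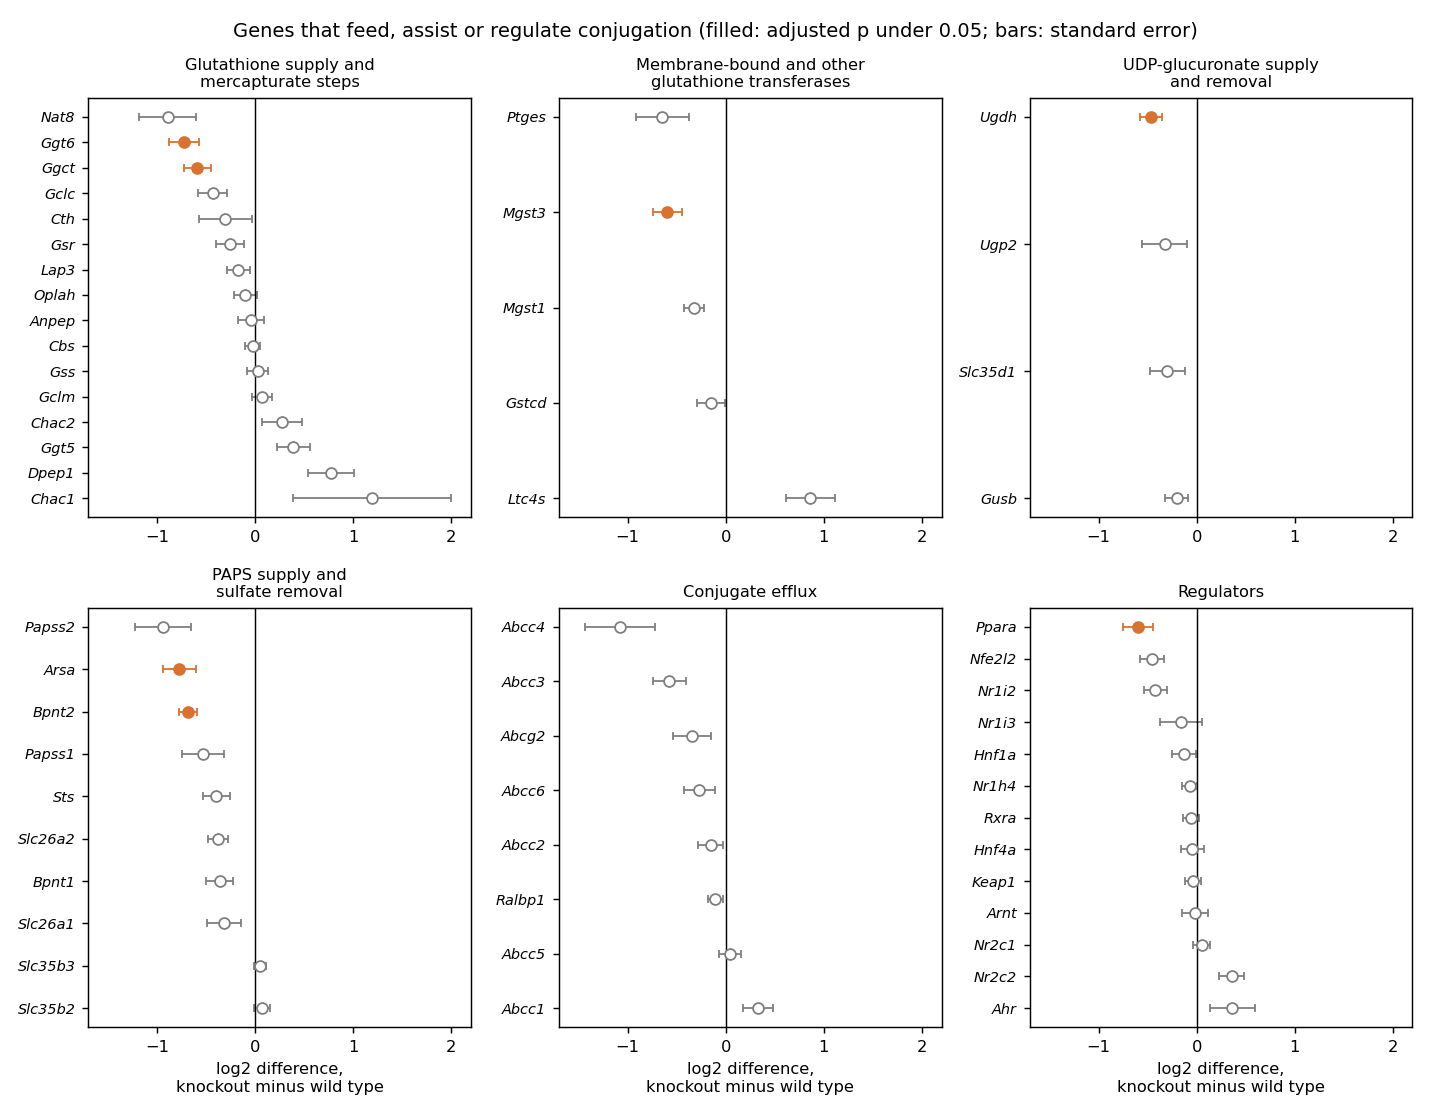
Log2 difference of knockout minus wild type, with the standard error of the fit as bars, for the 56 tested genes that feed, assist or regulate conjugation, in 6 groups. The 7 filled points passed an adjusted p of 0.05 and all lie left of 0, and Chac1 has the widest bar.

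The deleted gene was checked through 3 probes at its locus on chromosome 6. The probe at chr6:92237812-92237871, named AK039370 and in its description a transcript of this receptor, exceeded background in 5 of 5 wild-type samples and in 0 of 5 knockout samples. Its coordinates run on the minus strand, opposite to those of both probes named Nr2c2, and whether it reads the receptor's own transcript was not tested. The 2 probes named Nr2c2 exceeded background in all 10 samples and were not lower in the knockout, at 0.36 ± 0.13 and 0.44 ± 0.11 (n = 5 per group, limma adjusted p = 0.144 and 0.0428 over probes). Which part of the gene was deleted is not given in the labels, so what the probes check is unknown. The 75th percentile of signal ran from 950.3 to 1344 over the arrays, and 51.0% to 62.4% of probes were well above background. KO2 stood apart, with a highest correlation to any other array, across genes, of 0.974, where the others reached 0.983 to 0.994.

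Other cell types and liver programmes were followed through marker lists, by the median deviation of a list from its wild-type mean on each array. All 9 hepatocyte markers tested were above background on all arrays and 0 were called. Endothelial markers ran from -0.32 to 0.18 on wild-type arrays and from 0.16 to 0.77 on knockout arrays, with 0 of 8 called, and the log2 of their summed level from 4.23 to 4.73 and from 4.83 to 5.51. Macrophage markers overlapped between groups, at -0.47 to 0.53 and -0.41 to 0.97, with 0 of 8 called, and cholangiocyte, stellate and lymphocyte lists also had 0 called. Periportal hepatocyte markers were at -1.52 on KO2 and at -0.15 to 0.02 on the other knockout arrays, with 0 of 6 called, and of 7 pericentral markers 1 fell, Rhbg, by 0.88 (limma adjusted p = 0.0400). Of 7 genes known to be higher in male liver 1 rose, C8a, and their median difference was 0.58. Genes known to be higher in female liver were lower in the knockout in 6 of 6 tested, with 2 called (Cyp2a4 and Hao2), and ran from -0.30 to 0.43 in wild type and from -2.07 to -0.43 in the knockout. The part of these lists in the differences above was not tested, and in whole liver fewer cells of a type and less RNA per cell cannot be told apart.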

How the data were processed

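The authors quantified the scanned images with Agilent Feature Extraction, version 9.5 per the submitters' processing notes and 9.5.1.1 per the file headers, which also give the probe build mm7. The deposited intensity values are processed signals, background-subtracted and detrended by that program per the file headers, on a linear scale and not scaled between arrays. Values in the series table were identical to these. From the deposited intensities, log2 values were computed here, minus each array's 75th percentile over non-control spots. Taking that percentile over spots and not over probe means was settled after calls had been seen. Outlier-marked spots were set to missing and replicate spots averaged. Probes were kept when either group had 4 or more of its 5 arrays well above background, and a gene was represented by its brightest kept probe. Symbols were updated through RefSeq names of GRCm38.p6.

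The test was limma's moderated linear model (lmFit, eBayes; limma 3.58.1, R 4.3.3), knockout against wild type, two-sided, with Benjamini-Hochberg adjustment over 15810 genes. The procedure was run on simulated data with independent normal values for each gene. These held no slide effect and no deviating array, so the run does not speak to either. The number of arrays, 5 per group, limits the precision. Members, lists and alternatives were chosen with earlier results of these data known. The text names the deleted gene, each called member, the member with the smallest p in a class without a call, members with an array far from its group, and up to 4 called genes of each pathway group or else the one with the smallest p. Other members were named after their values were seen. Same-numbered samples did not deviate together (correlations from -0.21 to 0.04 across genes, 0 of 5 over 0.1). Expression thus gave no sign of pairing by number, but pairing that leaves no mark on expression cannot be seen this way. Alternatives changed the background correction, scaling, filter, outlier spots, probe choice, slide block, replicate block, array weights and the arrays left out.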

Additional observations from a re-analysis of the deposited data

Results flagged for a closer look

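In 11 of 80 groups of 5 arrays, 1 array stood apart from the other 4 by Dixon's criterion (a gap over 0.71 of the range). Chance alone marks about 1 in 20 groups, and genes on the same arrays are not independent. Of the 11 values, 9 were on KO2. Its values were low for Gstm7 at -0.17 (other knockout arrays 0.33 to 0.50), Gstt1 at 1.80 (2.46 to 2.71) and Gstz1 at 5.25 (5.67 to 5.73). Among glucuronosyltransferases they were low for Ugt1a9 at -2.47 (-1.74 to -1.49), Ugt2a1 at 2.33 (3.93 to 4.06), Ugt2a3 at 4.61 (5.91 to 6.04) and Ugt2b1 at 2.88 (4.31 to 4.85). Sult1b1 was low at 1.51 (2.91 to 3.28), and Sult1a1 was high at 6.71 (5.21 to 5.63). In wild type, Ugt2b34 was high on WT4 at 3.84 (3.56 to 3.60) and Sult1b1 low on WT1 at 2.65 (3.10 to 3.26). Gstt1 and Gstz1 passed the test without KO2, and for Ugt2a1, Ugt2a3, Sult1a1 and Sult1b1 the sign of the difference turned without it. The cause of the KO2 values was not tested.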

How the results depend on the processing

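The 6 falls kept their direction under every alternative. For the slide block, slide 2 alone and single arrays left out, this was fixed by the lack of overlap between their groups. The same 6 members were called under quantile normalisation, the stricter filter, with outlier spots kept and with the mean of a gene's probes. They were also the 6 called with array weights, with every probe tested and with the percentile over probe means (added after the data were seen). Normexp with quantile normalisation called 5 of them, without Gstz1. Glutathione transferase calls were 2 with normexp, 1 without scaling, 1 without the filter, 0 with slide as a fixed block and 0 within slide 2, and 1 to 6 with single arrays left out. The sulfotransferase count was 0 with the fixed block and within slide 2. Slide as a random block called 1 glucuronosyltransferase, Ugt3a1. The pathway count was 0 with normexp, 1 without scaling, 1 without the filter, 0 with the fixed block and within slide 2, 12 with the random block, 12 with array weights, and 1 to 10 with single arrays left out. With the replicate number as a block, 2 glutathione transferases, 0 sulfotransferases and 1 pathway gene were called. No sample correlated best with its own number, and whether the numbers pair samples is not known. All-gene calls, 938 in all, were 86 with normexp, 471 without scaling (314 higher and 157 lower, against 387 and 551, with the median of all genes at 0.12), 247 without the filter over 27666 genes, 35 with the fixed block, 2 within slide 2, 166 with the replicate block and 1452 with the random block, and 297 to 1197 with single arrays left out. Of the 40 tested members, 12 turned sign with the fixed block and within slide 2: Gsto2 (-0.25), Gsto1 (-0.0074), Gstp1 (-0.059), Gstm2 (0.21), Gstm5 (0.025), Ugt2b1 (-0.17), Ugt2b5 (-0.047), Sult1c1 (-0.049), Sult1d1 (0.033), Sult1e1 (0.26), Sult4a1 (-0.043) and Sult5a1 (-0.092). With normexp 5 did: Gstp1 (-0.018), Ugt2b5 (-0.082), Ugt2b35 (-0.043), Sult1a1 (-0.037) and Sult1e1 (0.30). With array weights 4 did: Ugt2a1 (0.038), Ugt2b5 (-0.00141), Sult1a1 (-0.11) and Sult1e1 (0.075). Without scaling 3 did: Ugt1a1 (0.063), Ugt2b37 (0.018) and Sult1e1 (0.10). Normexp with quantile normalisation turned Ugt1a1 (0.0010), and the mean of a gene's probes Ugt2b37 (0.00245). With single arrays left out, Ugt1a1 ran from -0.15 to 0.10, Ugt2b5 from -0.048 to 0.045, Sult1e1 from -0.14 to 0.18, Ugt2a1 ran from -0.24 to 0.19, Ugt2a3 from -0.24 to 0.12, Ugt2b1 from -0.0026 to 0.49, Sult1a1 from -0.15 to 0.23 and Sult1b1 from -0.40 to 0.039. Slide 2 held 1 wild-type array, so both of these differences rest on 1 array against 3. The causes of the other changes were not tested. Signal near background limits Gsto2, Sult1e1 and Sult4a1 and left 4 members untested.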

Other observations

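A pair of pathway genes that were not called had values apart from their groups and were chosen after their values were seen. The efflux pump gene Abcc4, like Ugt1a9, was highest on WT1 and WT2, at 0.55 and 0.73, against -1.14, -0.95 and 0.08 on the other wild-type arrays and -1.48 to -0.98 in the knockout. Chac1, which degrades glutathione, was 3.72 on KO2 and -1.65 to 0.53 on the other knockout arrays, with -1.07 to -0.40 in wild type.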
